A study of Rattus norvegicus with 23 samples.

Results

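The genes described here are a set of 36 myelin and oligodendrocyte genes, followed on microarrays of the dorsal hippocampus of young and aged rats. The list was given by name, and a gene was measured where the array annotation gave a probe set (a group of probes read as a single signal) that gene's symbol alone. That held for 33 of the 36, on 34 of the 29211 probe sets, and all 33 passed the signal filter. The symbols Myrf, Anln and Olig2 were not matched and are not analysed here. Mbp had 2 probe sets, of which the brighter stands for the gene. By role, 30 of the 33 are genes of mature oligodendrocytes and 3 (Pdgfra, Cspg4 and Gpr17) mark their precursors.

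Male F344 rats formed 4 groups, with 1 array for each animal. ST rats (n = 6, short-term) and LT rats (n = 6, long-term) had received AAV-FKBP1b, an adeno-associated virus (AAV) that carries the rat gene for FKBP1b, a protein that restrains calcium release from ryanodine receptors. AC rats (n = 5, aged controls) had received AAV-eGFP, which carries a green fluorescent protein, and YC rats (n = 6, young controls) had no injection by the study's methods, while the labels describe them as sham-treated. All 3 aged groups were 21 months old and YC rats 5 to 6 months old. The virus was given on 2 sides, at 2 µl for each side, with titers of 1.99e12 gene copies/mL for AAV-FKBP1b in ST and LT rats and 1.86e13 gene copies/mL for AAV-eGFP in AC rats. By the study's design text the injection came at 19 months of age in ST, 13 in LT and 13 in AC rats, and by the labels at 18, 12 and 18. FKBP1b stood under the CaMKII promoter, which is active in excitatory neurons, and the virus was given into CA1. The arrays were made from the dorsal hippocampus of a single hemisphere. ST and LT rats with FKBP1b expression above the median of their group had been picked for the arrays, and AC and YC rats at random. AC and YC rats thus differed in age, surgery and vector together. ST or LT and YC rats differed in age, surgery, vector, transgene and the way of picking together. ST or LT and AC rats differed in transgene, titer and the way of picking together. By the design text ST and AC rats also differed in age at injection and time since it, and by the labels LT and AC rats did. These cannot be told apart.

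Oligodendrocytes wrap axons of the central nervous system in myelin, a stack of membrane held together by proteins such as Mbp and rich in galactolipids. They arise from precursors that carry the receptor Pdgfra, and the factors Sox10, Olig2 and Myrf drive the lineage toward myelin formation. In the hippocampus most of the myelin lies in the alveus, the fimbria and the layer where the perforant path runs. Signals below are the deposited intensities, unlogged, and differences are log2 fold changes from limma with p values adjusted over all 13339 probe sets tested. A gene was called where the adjusted p was under 0.05.

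Fkbp1b signal averaged 694 ± 153 (SD, n = 6) in ST, 1002 ± 147 (SD, n = 6) in LT, 401 ± 40.5 (SD, n = 5) in AC and 373 ± 20.4 (SD, n = 6) in YC rats, and the lowest LT array lay above the highest AC array. The lowest ST array, at 427, lay below the highest AC array, at 458. In limma Fkbp1b was called in LT over AC (adjusted p = 8.95e-06) and not in ST over AC (0.76, adjusted p = 0.0851). The paper states that the array lacks a probe set for FKBP1b, while the annotation used here gave the symbol to 1. RNA integrity numbers ran between 9.4 and 9.7 in ST, 8.9 and 9.5 in LT, 8.9 and 9.8 in AC and 9.4 and 9.5 in YC rats, with the lowest, 8.9, on AC replicate 5 and LT replicate 3. Genes of the choroid plexus stood high on 4 arrays, LT replicates 2 and 5 and AC replicates 3 and 4, with list scores between 2.73 and 3.31. A list score is the mean log2 signal of a list's genes on an array, each gene taken relative to its mean over the 23 arrays. Markers of Schwann cells, the myelin-forming cells of peripheral nerve, had summed signals between 189 and 239 over the 3 genes tested on any array.

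A single control array, AC replicate 5, stood apart in the oligodendrocyte genes. It had the lowest AC signal for 27 of the 33 genes (81.8%), while it was lowest for 28.3% of all tested probe sets, and it was the lowest of all 23 arrays for 22 of the 33 (66.7%), against 16.0% of all tested. Its score over the 30 mature genes was -0.40, and the other AC arrays lay between -0.09 and 0.11. The ranges were -0.05 to 0.13 in ST, -0.13 to 0.11 in LT and -0.08 to -0.01 in YC rats, and LT replicate 3, at -0.13, was the next lowest array. The 3 precursor genes did not share this: their score on AC replicate 5 was 0.32, the highest of any array. Gpr37, a receptor of differentiating oligodendrocytes, had 839, 827, 763, 716 and 369 on the AC arrays, the last being replicate 5. Evi2a, a membrane protein encoded within an intron of Nf1, had 872, 906, 821, 818 and 510, and Car2, a carbonic anhydrase, had 2702, 2658, 2758, 3001 and 1738. In each of these genes replicate 5 lay below every other array of any group.

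Other lists moved on the same array. The microglial score over 17 genes was 0.95 on AC replicate 5 and between -0.02 and 0.06 on the other AC arrays, and summed microglial signals ran between 7576 and 8685 in ST, 7623 and 9348 in LT, 7716 and 13629 in AC and 6229 and 6555 in YC rats. Genes that mark hippocampal fields, such as Prox1 of the dentate gyrus and Wfs1 of CA1, had a score of -0.59 on AC replicate 5 and between -0.05 and 0.19 on the other AC arrays. Genes of hippocampal fields were measured on every array, with summed signals between 8435 and 13665 over 7 genes. AC replicate 5 and LT replicate 3, the 2 arrays lowest in mature oligodendrocyte genes, were also the 2 with the lowest RNA integrity. The part of microglia or of the dissection in the low oligodendrocyte signals was not tested. With the RNA integrity number as a covariate the counts of called genes were 5 in ST, 4 in LT and 5 in AC over YC and 0 in ST and LT over AC. The shares of all tested probe sets called in that fit are not given here. In such tissue samples, fewer oligodendrocytes and less RNA in each of them cannot be told apart.

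**Figure D1:**
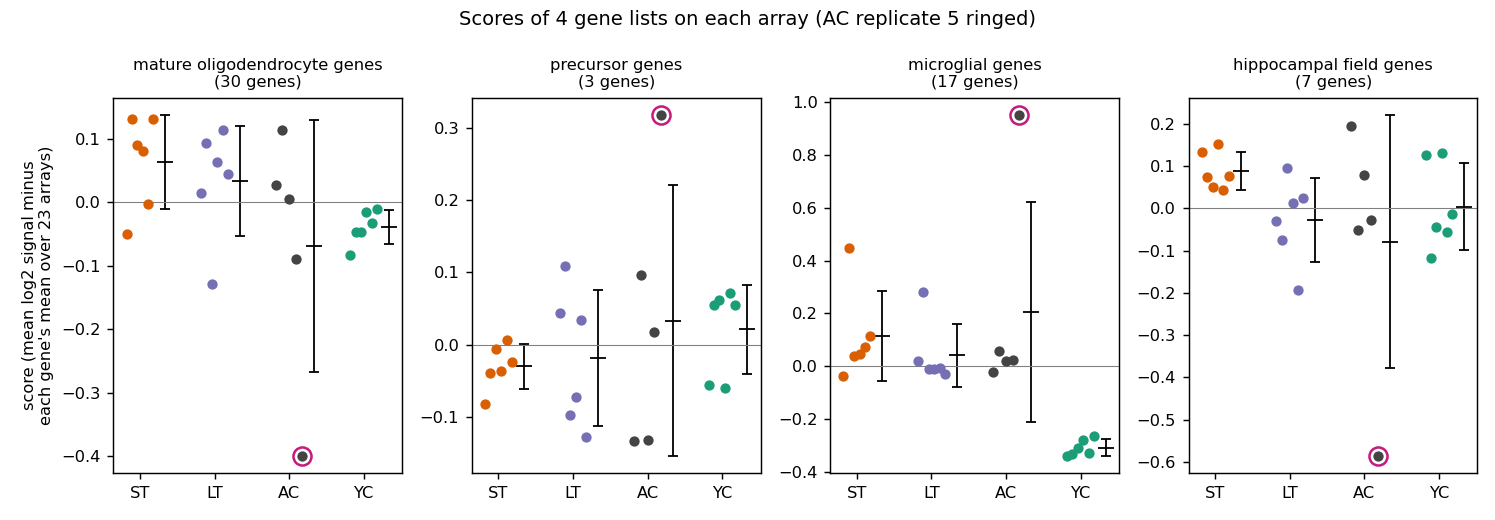
List scores on each array (mean log2 signal of the genes relative to their means over 23 arrays) for ST, LT, AC and YC rats, with the mean and SD of each group as a bar to the right of its points. AC replicate 5 (ringed) had the lowest score of mature oligodendrocyte genes, -0.40, the highest of precursor genes, 0.32, and the highest of microglial genes, 0.95.

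The spread between animals was widest in AC rats. The median SD of log2 signal over the 33 genes was 0.085 in ST, 0.11 in LT, 0.23 in AC and 0.054 in YC rats, while over all tested probe sets it was 0.076, 0.081, 0.11 and 0.072 in the same order of groups. The SD was larger in AC than in ST rats for 31 of the 33 genes, larger than in LT rats for 28 and larger than in YC rats for 32. Without replicate 5 the median SD over the genes in AC rats was 0.13. At the other end, AC replicate 2 had the highest AC signal for 19 of the 33 genes, where it was highest for 18.4% of all tested. ST replicate 1 and LT replicate 3 were the low arrays of their groups, with the lowest ST signal for 19 of the 33 genes (57.6%, against 23.4% of all tested) and the lowest LT signal for 25 (75.8%, against 16.1%).

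**Figure D2:**
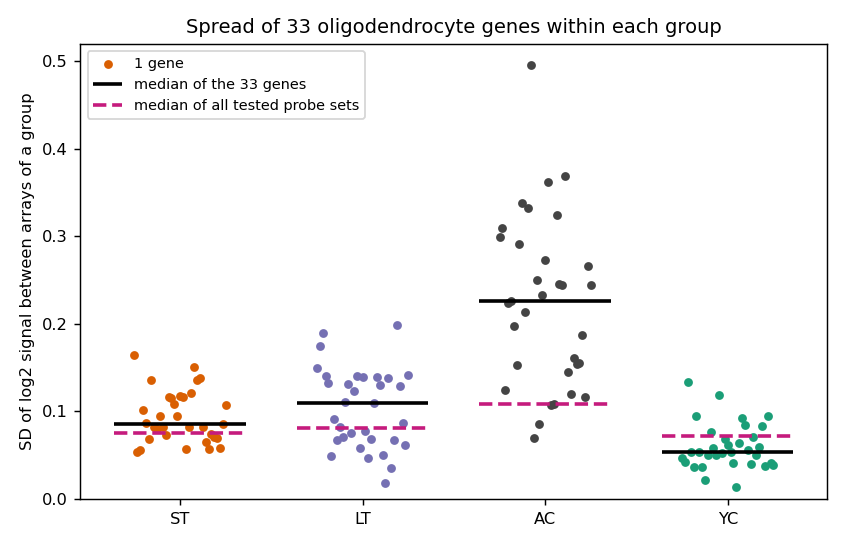
SD of the log2 signal between arrays of a group (vertical axis) for each of the 33 oligodendrocyte genes (points) in ST, LT, AC and YC rats, with the median of these genes (solid line) and of all tested probe sets (dashed line). The median of the genes was 0.23 in AC rats and between 0.054 and 0.11 in the other groups.

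Between AC and YC rats, 4 of the 33 genes were called, 2 of them higher and 2 lower in AC. That is 12.1% of the genes, and 9.75% of all tested probe sets were called in this comparison, 5.56% higher and 4.18% lower. The higher genes were Rasgrp3, an exchange factor for Ras proteins, and Qdpr, a reductase that recycles tetrahydrobiopterin. The lower genes were Ugt8, the galactosyltransferase that makes galactosylceramide, a main myelin lipid, and Mal, a proteolipid of myelin lipid rafts. The median log2 fold change over the 33 genes was -0.01, as it was over all tested probe sets (-0.01), and 15 of the 33 were above 0, where 47.5% of all tested were. The arrays lay wholly above YC for 1 gene, Rasgrp3, and wholly below for 1, Ugt8, where 3.21% and 1.88% of all tested did.

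Rasgrp3 signals were 836, 785, 644, 764 and 621 in AC rats, against a lowest of 542, a median of 560 and a highest of 582 in YC rats. Every AC array lay above every YC array, and the gene rose by 0.37 on the log2 scale (SE 0.068, adjusted p = 0.00263 from limma). Qdpr signals were 1543, 1624, 1388, 1391 and 1231 in AC rats, against 1114, 1223 and 1286 as the lowest, median and highest in YC rats. Of the AC arrays, replicate 5 alone lay within the YC range, and the gene rose by 0.25 (SE 0.079, adjusted p = 0.0455). Ugt8 signals were 797, 809, 686, 633 and 538 in AC rats, all below the YC range of 822 to 878 (median 846). The gene had a log2 fold change of -0.31 (SE 0.084, adjusted p = 0.0255). Mal signals were 1780, 2075, 2056, 1659 and 1122 in AC rats, against 1998, 2161.5 and 2221 in YC rats, so that 2 AC arrays overlapped with the YC range. Its log2 fold change was -0.34 (SE 0.10, adjusted p = 0.0455).

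Only the call of Rasgrp3 held in each of the 23 fits that left out 1 array, with adjusted p between 7e-04 and 0.00928. Ugt8 lost its call without AC replicate 3, 4 or 5 (highest adjusted p 0.0683). Mal kept it only without AC replicate 1, 2 or 3, ST replicate 1 or LT replicate 3 (adjusted p between 0.021 and 0.085 over the fits), and Qdpr only without YC replicate 3, AC replicate 5, ST replicate 1 or LT replicate 3 or 5 (0.012 to 0.107). Without AC replicate 5 the calls were Rasgrp3, Qdpr, Klk6, Plekhb1 and Car2, higher in AC, and Gpr17, lower in AC, and the values of Ugt8 and Mal were -0.22 and -0.19. That made 6 of 33 called beside 11.9% of all tested, and the median over the 33 genes was then 0.07. Without AC replicate 2 the count was also 6, with the share of all tested not given here. Those calls were Rasgrp3, Cnp, Ugt8, Fa2h, Mal and Gpr17, and with all arrays each of them but Rasgrp3 had a value below 0. With the 4 choroid plexus arrays left out, Rasgrp3 was the single call, and the share of all tested called in that fit is not given here. Microglial markers moved in the same comparison, with 13 of 17 called higher in AC rats.

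The 250 bases before the start of Rasgrp3, of Qdpr, of Mal and of Klk6 (a secreted serine protease) are shown because these genes were among those called here or in the next comparisons. They come from RefSeq on the rat assembly GRCr8, which had such a window for 28 of the 36 genes. Capitals mark 3 kinds of letters on either strand: CTGGCAC or CTGGTAC, letters bound by the myelin factor Myrf, ACAAAG or ACAATG, letters bound by Sox proteins, and the GC box GGGCGG.
Rasgrp3 (chr6:25710592-25710841, minus strand): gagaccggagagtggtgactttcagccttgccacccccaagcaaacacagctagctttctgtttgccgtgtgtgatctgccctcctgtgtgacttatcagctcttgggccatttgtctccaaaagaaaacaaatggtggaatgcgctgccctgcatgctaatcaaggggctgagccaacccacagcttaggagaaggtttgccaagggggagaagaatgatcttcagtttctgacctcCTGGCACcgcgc
Qdpr (chr14:69882526-69882775, plus strand): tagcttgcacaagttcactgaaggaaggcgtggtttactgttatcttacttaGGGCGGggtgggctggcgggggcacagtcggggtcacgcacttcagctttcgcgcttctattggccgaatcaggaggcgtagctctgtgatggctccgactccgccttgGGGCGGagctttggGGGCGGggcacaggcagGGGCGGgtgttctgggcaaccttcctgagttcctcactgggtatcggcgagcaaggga
Klk6 (chr1:103415266-103415515, plus strand): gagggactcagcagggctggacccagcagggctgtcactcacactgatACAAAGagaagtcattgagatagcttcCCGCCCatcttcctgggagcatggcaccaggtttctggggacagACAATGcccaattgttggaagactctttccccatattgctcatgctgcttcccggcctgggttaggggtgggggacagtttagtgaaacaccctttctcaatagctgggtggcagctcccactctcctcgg
Mal (chr3:135341424-135341673, minus strand): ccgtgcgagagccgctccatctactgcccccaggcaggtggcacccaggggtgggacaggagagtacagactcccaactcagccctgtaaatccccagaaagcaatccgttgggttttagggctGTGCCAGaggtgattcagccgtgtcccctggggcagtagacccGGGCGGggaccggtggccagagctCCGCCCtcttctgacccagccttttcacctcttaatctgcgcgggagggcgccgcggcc
Rasgrp3 held CTGGCAC starting 12 bases before its start, and Mal held the same letters on the other strand, 126 bases before its start. Klk6 held ACAAAG and ACAATG, and Qdpr held GGGCGG 4 times and neither of the other kinds. Of the 28 genes with a window, 8 (28.6%) held CTGGCAC or CTGGTAC, namely Cldn11, Cnp, Hapln2, Mag, Mal, Olig2, Opalin and Rasgrp3, and 5.48% of all 33469 promoters of this length did. The Sox letters stood in 9 of the 28 (32.1%) and in 25.3% of all promoters, and the GC box in 14 (50%) and in 30.5%. A gene with several windows, such as Mbp, counted if any of them held the letters, while the promoters were counted singly. The shares are thus not in the same unit. These matches describe letters and not binding.

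Against YC rats, the calls in ST and LT rats, which differed from YC in age as well as in vector, were higher ones in the fit of all arrays. In ST rats 5 of the 33 genes were called (15.2%), all of them higher, while 4.15% of all tested probe sets were called, 2.71% higher and 1.44% lower. In LT rats 4 of the 33 were called (12.1%), again all higher, while 1.03% of all tested were called, 0.81% higher and 0.225% lower. Rasgrp3, Qdpr, Klk6 and Padi2 were called in each of these comparisons, and Plekhb1 in ST rats. Values above 0 numbered 22 of the 33 in ST over YC, where 52.5% of all tested were above 0, and 22 in LT over YC, where 43.9% were. An unadjusted p under 0.05 was found for 12 genes in ST and 9 in LT over YC, where 21.7% and 13.4% of all tested had it, and for 13 in AC over YC, where 27.4% had it. ST and LT were set against the same YC arrays, so the lists are not independent. Padi2 is the deiminase that citrullinates myelin basic protein, and Plekhb1 a membrane-bound pleckstrin homology protein. Of the 7 genes of signaling and enzymes, 4 rose in ST and 3 in LT rats, and the remaining call, Qdpr, was from the 6 genes of lipids and metabolism. The other 20 genes tested, in compact myelin, the myelin surface and loops, the cytoskeleton, transcription factors and precursors, had no call in either comparison.

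Rasgrp3 had a lowest signal of 770, a median of 800 and a highest of 860 in ST rats, and 693, 788 and 875 in LT rats, against 542, 560 and 582 in YC rats. Neither group overlapped with YC, and the gene rose by 0.52 in ST (SE 0.065, adjusted p = 0.00013) and by 0.47 in LT rats (SE 0.065, adjusted p = 0.000506). Qdpr had 1522, 1616 and 1737 in ST rats and 1152, 1556.5 and 1714 in LT rats, against 1114, 1223 and 1286 in YC rats. Here the ST arrays were all above YC, while LT replicate 3, at 1152, lay within the YC range. The gene rose by 0.44 in ST (SE 0.075, adjusted p = 0.0036) and by 0.33 in LT rats (SE 0.075, adjusted p = 0.0381).

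Klk6 had 868, 976.5 and 1069 in ST rats and 795, 955 and 1017 in LT rats, against 742, 765 and 812 in YC rats. The AC signals of Klk6 were 917, 932, 863, 857 and 803, with 0.18 in AC over YC (limma adjusted p = 0.0616). All ST arrays lay above YC and 1 LT array did not, with a rise of 0.33 in ST (SE 0.058, adjusted p = 0.00383) and 0.26 in LT rats (SE 0.058, adjusted p = 0.0297). Padi2 had 585, 645.5 and 685 in ST rats and 625, 634 and 646 over the 5 LT arrays with a value, against 533, 547 and 566 in YC rats. The AC signals of Padi2 were 633, 679, 547, 538 and 567, with 0.11 in AC over YC (limma adjusted p = 0.172). Its value on LT replicate 3 was blank in the deposited table and was left missing. By the methods, values over 2 SDs from the group mean were treated as missing, so the blank may be a removed extreme value on the lowest LT array. No ST array and none of the 5 LT arrays with a value overlapped with YC, and the gene rose by 0.23 in ST (SE 0.048, adjusted p = 0.0108) and by 0.21 in LT rats (SE 0.050, adjusted p = 0.0457). Plekhb1 had 3809, 4153.5 and 4259 in ST rats and 3844, 4014.5 and 4127 in LT rats, all above the YC range of 3450 to 3780 (median 3572.5). The AC signals of Plekhb1 were 4118, 4086, 3916, 3711 and 3139, with 0.07 in AC over YC (limma adjusted p = 0.367). It rose by 0.20 in ST rats (SE 0.049, adjusted p = 0.0248), and its value in LT rats, 0.16, did not pass (adjusted p = 0.137).

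**Figure D3:**
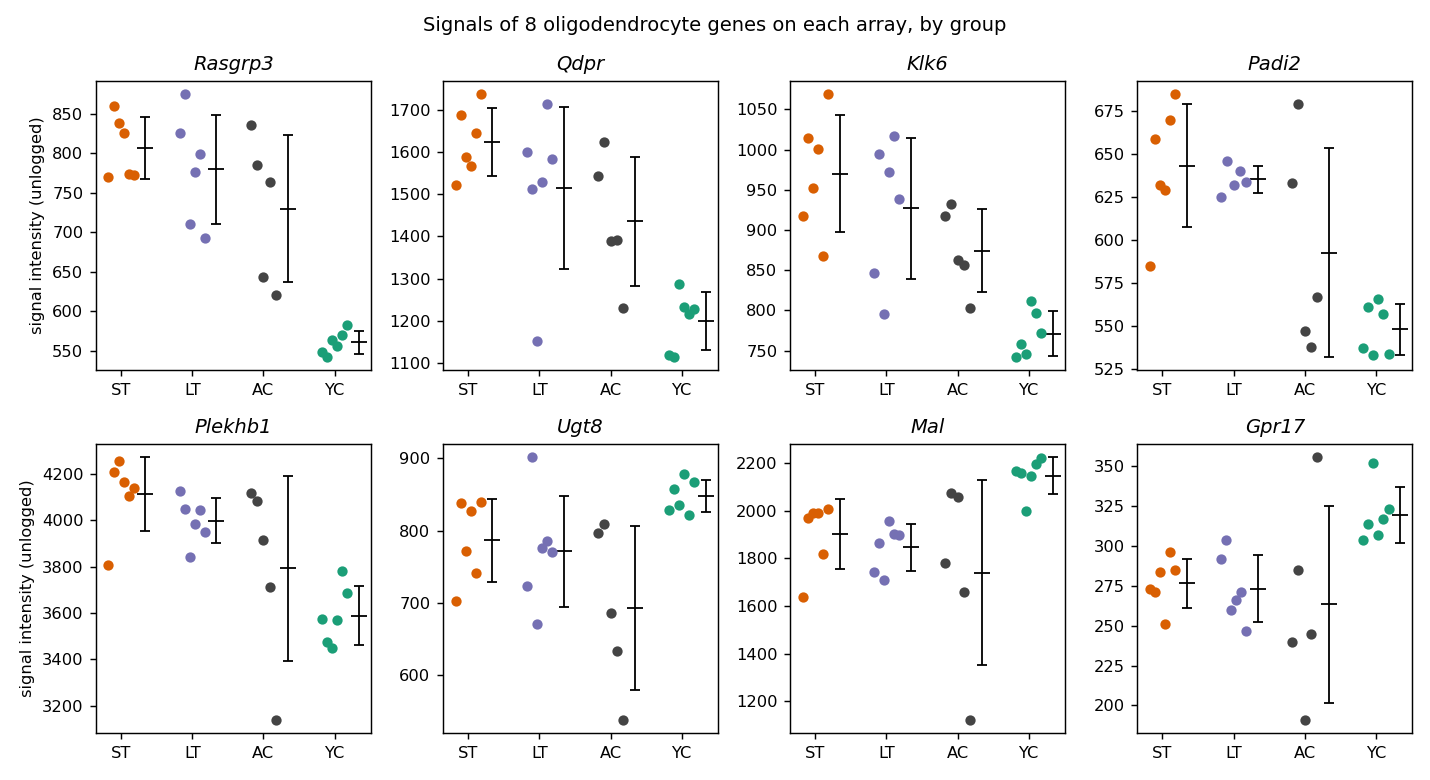
Unlogged signal of 8 genes on each array (points) in ST, LT, AC and YC rats, with the mean and SD of each group as a bar to the right of its points; the vertical axes do not start at 0. Rasgrp3 signals lay between 542 and 582 in YC rats and at 621 or above on every array of the aged groups, whereas Ugt8 signals of AC rats, at most 809, lay below every YC array.

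Rasgrp3, Qdpr, Klk6 and Padi2 kept their calls in ST over YC in all 23 fits that left out 1 array, and Plekhb1 in 17, losing it without YC replicate 2 or 3 or ST replicate 2, 3, 4 or 6 (highest adjusted p 0.0594). In LT over YC, Rasgrp3 kept its call in 23, while Klk6 lost it without YC replicate 1, 2, 3 or 6 or LT replicate 2, 4, 5 or 6 (highest adjusted p 0.082). Qdpr in LT rats lost it without any YC replicate or any LT replicate but 3 (highest adjusted p 0.109). Padi2 in LT rats kept it only without an AC replicate or ST replicate 1 or 6 (highest adjusted p 0.101). Without AC replicate 5, an array outside these contrasts that enters the shared variance, 8 genes were called in ST and 8 in LT over YC, where 7.59% and 2.83% of all tested were. The 8 in LT rats were 7 higher and 1 lower, Mal. With the 4 choroid plexus arrays left out 6 were called in ST and 1 in LT over YC, with the shares of all tested not given here. The microglial markers called higher were 8 of 17 in ST and 5 of 17 in LT rats.

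Several genes had arrays that did not overlap with YC but did not pass the test. Among ST arrays, 8 of the 33 genes lay wholly above YC and 1 wholly below, where 3.49% and 1.24% of all tested probe sets did. Besides the 5 called genes, these were Ermn, a cytoskeletal protein of mature oligodendrocytes, at 0.21 (adjusted p = 0.134), Car2 at 0.17 (0.314) and Evi2a at 0.15 (0.352), and below YC the precursor gene Gpr17 at -0.21 (0.203). Among LT arrays, 4 genes lay wholly above YC and 1 below, where 2.29% and 1.04% of all tested did: Rasgrp3, Padi2, Plekhb1 and Opalin, and below YC Mal. Opalin, a glycoprotein of mature oligodendrocytes, had 0.21 in LT over YC (adjusted p = 0.386). Mal had 1710, 1880.5 and 1958 in LT rats, against 1998, 2161.5 and 2221 in YC rats, with a log2 fold change of -0.22 that did not pass (adjusted p = 0.335).

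No oligodendrocyte gene was called between the FKBP1b groups and the aged controls. In ST over AC none of the 33 had an adjusted p under 0.05 in limma, and 16 had an unadjusted p under 0.05, where 0% of all tested probe sets were called and 9.82% had such an unadjusted p. In LT over AC none was called and 3 had an unadjusted p under 0.05, where 0.075% and 12.6% of all tested did. For the mean of ST and LT over AC these counts were 0 and 13, with 0.03% and 10.5% over all tested. The values nevertheless leaned one way: 28 of the 33 genes had a fitted value above 0 in ST over AC, where 56.7% of all tested probe sets did, and 28 in LT over AC, where 48.2% did. The medians were 0.13 in ST over AC and 0.10 in LT over AC, beside 0.01 and -0.00309 over all tested. The same AC arrays entered each of these comparisons. Markers of other cells went both ways in the same contrasts. Of 11 astrocyte genes 7 were above 0 in ST over AC and 7 in LT over AC (medians 0.02 and 0.00396). Of 15 neuronal genes 13 and 7 were above 0 (medians 0.04 and -0.00497), and of 7 genes of hippocampal fields 6 and 3 (medians 0.11 and -0.02). Markers of several further kinds of cell lay mostly on the lower side. Of 12 genes of endothelium and pericytes 1 was above 0 in ST over AC (median -0.18) and 1 in LT over AC (median -0.20, with 1 gene called lower), and their summed signals ran between 2826 and 2978 in ST, 2773 and 2973 in LT and 2942 and 3497 in AC rats. Of 10 genes of meningeal fibroblasts 0 and 1 were above 0 (medians -0.25 and -0.12), of 17 microglial genes 6 and 3 (medians -0.08 and -0.18), and of 11 choroid plexus genes 0 and 5 (medians -1.88 and -0.01). The part of these cells in the oligodendrocyte values was not tested.

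AC replicate 5 was singled out because it was the lowest AC array in most of these genes. Leaving it out was thus bound to lower most values over AC and to raise most in AC over YC. The fits without it are therefore no independent check. Without AC replicate 5 the medians over AC lay nearer to 0. They were then 0.05 in ST over AC, 0.02 in LT over AC and 0.03 for their mean over AC, which was 0.11 with all arrays. The genes above 0 were 26, 22 and 25 of the 33, where 58.5%, 46.5% and 53% of all tested were, and the genes with an unadjusted p under 0.05 were 5, 3 and 4, where 9.24%, 12.6% and 9.9% of all tested had it. The methods' analysis of variance and Fisher's LSD, with unadjusted p values, gave 13 genes in ST over AC and 3 in LT over AC, where the same test called 6.09% and 9.11% of all tested.

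**Figure D4:**
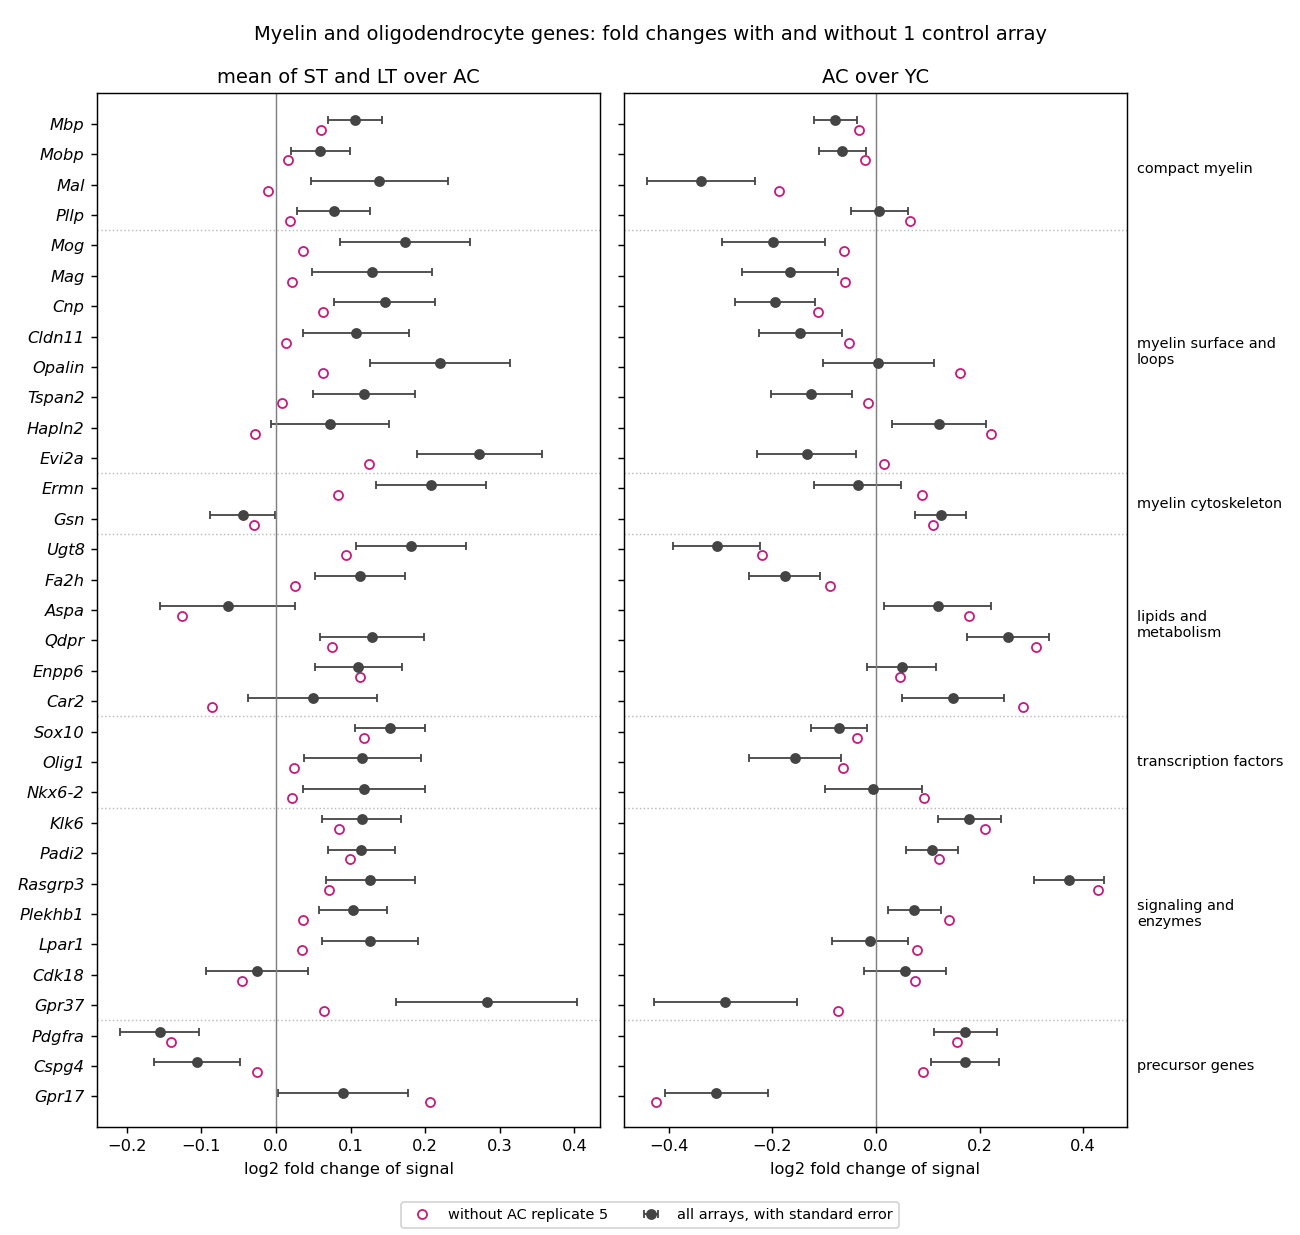
Log2 fold change of signal for the 33 genes, ordered by role, for the mean of ST and LT over AC (left) and AC over YC (right). Filled points are from all 23 arrays with their standard errors and open points are from the fit without AC replicate 5; with all arrays 28 of 33 genes lay above 0 on the left, and without that array 25.

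The smallest p values over AC belonged to Sox10, Pdgfra, Evi2a, Ermn and Mbp. Sox10, a transcription factor of the whole lineage, had a lowest signal of 339, a median of 370 and a highest of 377 in ST rats and 321, 348 and 379 in LT rats, against 350, 346, 302, 319 and 292 in AC rats. The YC range was 311 to 364. ST and AC arrays overlapped between 339 and 350, and the values were 0.18 in ST over AC (SE 0.054, adjusted p = 0.287) and 0.12 in LT over AC (SE 0.054, adjusted p = 0.359). Without AC replicate 5 they were 0.15 and 0.09. Evi2a had 864, 956 and 995 in ST rats and 861, 922 and 994 in LT rats, against the AC signals given above, and 0.28 in ST over AC (adjusted p = 0.374) and 0.26 in LT over AC (adjusted p = 0.255). Without AC replicate 5 the values of Evi2a were 0.14 and 0.11. Ermn had 2481, 2701.5 and 2854 in ST rats and 2331, 2569 and 2647 in LT rats, against 2565, 2636, 2320, 2303 and 1593 in AC rats and a YC range of 2245 to 2412, and both treated groups overlapped with AC. It stood at 0.25 in ST over AC (adjusted p = 0.383), and at 0.12 without AC replicate 5.

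Mbp, which holds the cytoplasmic faces of the myelin membrane together, had signals of 4758, 5157.5 and 5263 in ST rats and 4966, 5249.5 and 5474 in LT rats, against 4962, 5141, 4872, 4820 and 4229 in AC rats. The YC signals were 4854, 5059 and 5240, so that all 4 groups overlapped. In LT over AC the value was 0.12 (SE 0.041, adjusted p = 0.213), and 0.08 without AC replicate 5. In ST over AC it was 0.09 (adjusted p = 0.491), and in AC over YC it was -0.08 (adjusted p = 0.221). The second Mbp probe set, numbered 10802972, gave 0.04 in LT over AC (adjusted p = 0.612), 0.02 in ST over AC and 0.03 in AC over YC, so the probe sets differed in sign in the last comparison. Mog, a glycoprotein of the outermost myelin layer, had 1505, 1773 and 1837 in ST rats and 1474, 1729.5 and 1800 in LT rats, against 1674, 1750, 1767, 1457 and 1034 in AC rats. Its YC range was 1644 to 1847, and its values were 0.18 in ST over AC (adjusted p = 0.565), 0.16 in LT over AC (0.505) and -0.20 in AC over YC (0.204). The Mog values were 0.05, 0.03 and -0.06 without AC replicate 5.

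Among the other genes of myelin structure, Mobp, Pllp, Mag, Cnp, Cldn11, Tspan2 and Hapln2 had no call in any comparison. All 8 genes of the myelin surface and loops (Mog, Mag, Cnp, Cldn11, Opalin, Tspan2, Hapln2 and Evi2a) were above 0 in ST over AC, with a median of 0.15, and in LT over AC, with a median of 0.13. In AC over YC 2 of the 8 were above 0 (Opalin and Hapln2), and the median was -0.14. The medians of these 8 genes were 0.04, 0.02 and -0.03 without AC replicate 5, with Hapln2 below 0 in ST over AC and Tspan2 and Hapln2 below 0 in LT over AC. All 4 genes of compact myelin (Mbp, Mobp, Mal and Pllp) were above 0 in ST over AC and in LT over AC, with medians of 0.10 and 0.09. Their medians were 0.03 and 0.00192 without AC replicate 5, and Mal and Pllp were below 0 in LT over AC. Of the cytoskeletal genes Ermn and Gsn (gelsolin, which cuts and caps actin filaments), Gsn stood at -0.04 for the mean of ST and LT over AC and Ermn at 0.21, and neither passed. Leaving out AC replicate 5 gave -0.03 for Gsn and 0.08 for Ermn.

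Fa2h, the hydroxylase of the fatty acids in myelin galactolipids, stood at -0.18 in AC over YC (adjusted p = 0.103) beside the lower Ugt8, and at 0.17 in ST over AC (0.445). These values of Fa2h were -0.09 and 0.08 without AC replicate 5. Ugt8 had 702, 799 and 840 in ST rats and 671, 773 and 902 in LT rats. These overlapped with AC and with YC, and the values over AC were 0.20 in ST (adjusted p = 0.476) and 0.17 in LT rats (0.422), and 0.11 and 0.08 without AC replicate 5. Aspa, which splits N-acetylaspartate, stood at 0.12 in AC over YC (adjusted p = 0.477). Its mean value over AC in ST and LT rats was -0.06, and -0.13 without AC replicate 5, with an AC signal of 936 on replicate 3 above every other array. Of the signaling genes without a call, Lpar1, a receptor for lysophosphatidic acid, stood at 0.13 for the mean of ST and LT over AC, Cdk18, a cyclin-dependent kinase, at -0.03 and Gpr37 at 0.28. The values of Lpar1, Cdk18 and Gpr37 were 0.03, -0.05 and 0.06 without AC replicate 5. Enpp6, a choline phosphodiesterase of newly formed oligodendrocytes, stood at 0.11 for the mean of ST and LT over AC with all arrays and 0.11 without AC replicate 5.

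The transcription factors Olig1 and Nkx6-2 had values of 0.10 and 0.10 in ST over AC and 0.13 and 0.13 in LT over AC, with no call in any comparison. Leaving out AC replicate 5 gave 0.00692 and 0.00462 in ST over AC and 0.04 and 0.04 in LT over AC. Of the precursor genes, Pdgfra and Cspg4 lay on the other side and Gpr17 did not. Pdgfra, the receptor for platelet-derived growth factor, had 764, 813.5 and 877 in ST rats and 768, 857 and 963 in LT rats, against 807, 940, 949, 999 and 972 in AC rats. The YC range was 767 to 874, and 4 of the 5 AC arrays lay above every ST and every YC array. Its values were -0.19 in ST over AC (SE 0.060, adjusted p = 0.348), -0.12 in LT over AC (0.407) and 0.17 in AC over YC (0.0701), and without AC replicate 5 they were -0.17, -0.11 and 0.16. Cspg4, the NG2 proteoglycan, stood at -0.10, -0.11 and 0.17 in these comparisons, with a signal of 227 on AC replicate 5 above every other array, and at -0.02, -0.03 and 0.09 without it. Gpr17, a receptor of precursors committed to differentiate, had 240, 285, 191, 245 and 356 in AC rats, against 304, 315.5 and 352 in YC rats. Replicate 5 was the one AC array above the YC range, and AC over YC gave -0.31 (adjusted p = 0.0513), and -0.42 (adjusted p = 0.003) without that array. Gpr17 stood at 251, 278.5 and 296 in ST rats and 247, 268.5 and 304 in LT rats. Its values over AC were 0.10 in ST (limma adjusted p = 0.791) and 0.08 in LT rats (0.756). Without AC replicate 5 they were 0.22 and 0.20.

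Between LT and ST rats none of the 33 genes was called and none had an unadjusted p under 0.05 in limma, where 0.0075% of all tested probe sets were called and 12.4% had such a p. The smallest p values were those of Fa2h at -0.11 (adjusted p = 0.486), Qdpr at -0.11 (0.545), Pllp at -0.08 (0.549) and Sox10 at -0.06 (0.615). Fa2h signals were 608, 653.5 and 709 in LT rats, against 648, 715 and 765 in ST rats, and Pllp, a tetraspan proteolipid of compact myelin, had 601, 640.5 and 694 in LT rats, against 647, 670.5 and 741 in ST rats. Both genes overlapped between the groups. The median over the genes was -0.02, beside -0.01 over all tested, with 8 of the 33 above 0, where 42.5% of all tested were. For Mbp the 95% interval of the LT over ST difference ran from -0.05 to 0.12, and for Rasgrp3 from -0.19 to 0.08.

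A wider list of the lineage was read in the same fit. Of its 45 oligodendrocyte genes 33 were tested, and in AC over YC 2 were higher and 1 lower, 9.09% beside the 9.75% of all tested. Tmem63a, an ion channel of the cell membrane, had a lowest signal of 274, a median of 339 and a highest of 351 in ST rats, 293, 321 and 354 in LT rats, 287, 336 and 347 in AC rats and 252, 257 and 277 in YC rats. It rose over YC by 0.31 in ST (adjusted p = 0.00614), 0.29 in LT (0.0198) and 0.33 in AC rats (0.0034), and the call in LT rats alone failed, without YC replicate 2 (adjusted p = 0.0528). Phldb1 was the other gene higher in AC over YC, at 0.14 (adjusted p = 0.0487), and Sirt2, a deacetylase of tubulin, was lower at -0.14 (adjusted p = 0.0235). Ppp1r14a was higher in ST over YC at 0.23 (adjusted p = 0.0418) and Tf, the iron carrier transferrin, in LT over YC at 0.25 (adjusted p = 0.0488). Over the 23 fits that left out 1 array, Sirt2 lost its call without YC replicate 6 or AC replicate 3 or 4 (highest adjusted p 0.0683). Phldb1, Ppp1r14a and Tf kept theirs in 6, 15 and 3 of these fits (highest adjusted p 0.13, 0.1 and 0.13). None of this list was called in ST or LT over AC, and 24 and 26 of its 33 genes were above 0 there, where 56.7% and 48.2% of all tested were. The score of this list was -0.31 on AC replicate 5 and between 0.02 and 0.11 on the other AC arrays. Of 12 tested genes in a further list of precursors, Itpr2, a calcium channel of the endoplasmic reticulum, was the single call, higher in AC over YC at 0.20 (adjusted p = 0.0443), and it kept the call in 13 of the 23 fits (highest adjusted p 0.0952). Over AC, 6 of these 12 genes were above 0 in ST and 8 in LT rats, with medians of 1.1e-05 and 0.02.

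Among 26 tested genes of signals that reach the lineage, 4 were higher and 2 lower in AC over YC (23.1%, where 9.75% of all tested were called, 5.56% higher and 4.18% lower). Pdgfa, the ligand of Pdgfra, had a lowest signal of 560, a median of 594.5 and a highest of 617 in ST rats, 573, 591.5 and 633 in LT rats and 568, 615 and 645 in AC rats. All were above the YC range of 510 to 549, and Pdgfa rose over YC by 0.14 in ST (adjusted p = 0.0176), 0.16 in LT (0.019) and 0.19 in AC rats (0.00306). The call of Pdgfa in LT rats failed without YC replicate 2 (adjusted p = 0.0569). The growth factor receptors Igf1r at 0.18 (adjusted p = 0.008) and Fgfr2 at 0.22 (0.026), and the Notch ligand Jag1 at 0.19 (0.00801), were also higher in AC over YC, and Fgfr2 in LT over YC at 0.25 (0.0381). Erbb2, a receptor subunit for neuregulins, had a lowest signal of 126, a median of 142 and a highest of 150 in LT rats, against 108, 116 and 125 in AC rats and 133, 138 and 149 in YC rats. It was lower in AC over YC at -0.27 (adjusted p = 0.00262) and higher in LT over AC at 0.26 (adjusted p = 0.0405), the only call over AC among all the genes of the lineage lists. The call in LT over AC held in 10 of the 23 fits, those without YC replicate 2, 4 or 6, AC replicate 1 or 5, ST replicate 1, 2 or 4 or LT replicate 2 or 4 (highest adjusted p 0.119 over all 23). Hes5, a target of Notch signaling, was lower in AC over YC at -0.20 (adjusted p = 0.0358). Hes5 kept this call in 16 of the 23 fits (highest adjusted p 0.0994), Fgfr2 its call in LT rats in 13 (highest 0.1), and Fgfr2 lost its call in AC rats without AC replicate 2, 3 or 4 (highest 0.0788).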

How the data were processed

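The deposited signals are intensities of probe sets on Rat Gene 1.0 ST arrays. Per the methods, the authors summarised the probes with robust multi-array average (RMA) in Partek, with versions not given in the sources used here. RMA draws the arrays to a common distribution, and the values are unlogged and rounded to whole numbers, so differences of a few units in dim genes are coarse. Of 29211 probe sets, 15307 had 1 gene symbol, 323 several and 13581 none in the array annotation. Probe sets with 1 symbol and a signal of 40 or more on at least 4 arrays were tested, 13339 in all, covering 12604 symbols. Blank cells, 265 in ST, 255 in LT, 0 in AC and 238 in YC rats (758 in all), were left missing. The authors treated values over 2 SDs from the group mean as missing, and in a group of 5 no value can lie over 1.79 SDs from it. Levels were not compared between probe sets, since probes differ in response. The depth of an array has no read count, and its precision is limited by the number of arrays, 23.

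Log2 signals were fitted with limma 3.58.1 in R 4.3.3, with 1 mean for each group over all arrays, moderated statistics and Benjamini-Hochberg adjustment. Contrasts were ST, LT and their mean over AC, LT over ST, and ST, LT and AC over YC. The fit was tested on simulated data. Each array is a separate animal per the labels. Array signals are described for Mbp, Mog, Sox10 and Pdgfra, for genes called in a comparison and, where fewer than 3 were called, for those with the smallest p, as the lowest, median and highest or the range in groups of 6 and by array in AC. Gpr37, Evi2a, Car2 and Gpr17 were singled out after their values were seen. Genes and lists were chosen with earlier results of these data known, and lists are described by counts and medians with no test. The microglial score as a covariate and the counts of lowest and highest arrays were added after seeing the data. Other alternatives were the filter, scaling, array weights, the choroid plexus arrays, the replicate number as a block, leaving out each array, and the methods' 1-way analysis of variance.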

Additional observations from a re-analysis of the deposited data

Results flagged for a closer look

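In 11 of 136 sets of 1 gene's signals within a group, a single array lay far from the rest by the ratio of its gap to the group's whole range, and chance gives about 1 in 20 such sets. In AC rats replicate 5 was the low array for Evi2a (ratio 0.778), Gpr37 (0.738) and Car2 (0.728), and replicate 2 was the high array for Cdk18 (0.852), at 469 with the next at 394. In ST rats replicate 1 was low for Hapln2 (0.694), Plekhb1 (0.662) and Olig1 (0.64). In LT rats replicate 3 was low for Olig1 (0.73) and Qdpr (0.642). In YC rats replicate 4 was high for Fa2h (0.776), at 761 with the next at 709, and replicate 3 was low for Mal (0.65), at 1998 with the next at 2143.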

How the results depend on the processing

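Medians over the 33 genes moved by less than the spread of the gene score between arrays (0.10) under every alternative run, but the median of LT over ST (-0.02) was 0.07 with the RNA integrity number as a covariate, and that of ST over YC (0.07) was 0.17 with the microglial score as a covariate. That spread was widest in AC rats (SD 0.17) and is about as large as the medians over AC, so it is a loose measure. Leaving out 1 array gave medians of 0.05 to 0.17 in ST over AC, 0.02 to 0.14 in LT over AC and -0.06 to 0.07 in AC over YC. Counts of called genes moved more, and the cause was not tested. The shares of all tested probe sets called under these settings are mostly not given here, so the counts are not measured against them. In AC over YC (4 genes) the count was 2 with the replicate number as a block, 2 without the signal filter, 1 with only the compared groups in the fit, 1 with the 4 choroid plexus arrays left out and 7 with the methods' unadjusted analysis of variance, which called 18.3% of all tested probe sets. With the microglial score as a covariate AC over YC had 3 called genes, Rasgrp3, Plekhb1 and Gpr17, while Ugt8, Mal and Qdpr lost their calls. In ST over YC (5 genes) the count was 13 with array weights, 12 with only the compared groups, 13 with the microglial score as a covariate and 10 with the analysis of variance. In LT over YC (4 genes) it was 2 with the replicate block, 2 with array medians made equal, 8 with only the compared groups, 1 without the choroid plexus arrays, 2 with the choroid plexus score and 9 with the microglial score as covariates, 8 with the analysis of variance and 1 with its p values adjusted. The analysis of variance gave 13 genes in ST over AC, 3 in LT over AC and 10 for their mean over AC, where limma gave 0. Leaving out 1 array at a time gave 1 to 6 genes in AC over YC, 4 to 8 in ST over YC and 1 to 8 in LT over YC, and 0 in the other comparisons. Equal replicate numbers did not pair the animals, since their deviations correlated between -0.38 and 0.20 with 1 or 2 pairs over 0.1 in each comparison, and with the replicate block the count in ST over YC was 4. Of 1160 values of single genes under alternatives, 1035 kept their direction and side of the threshold, 114 no longer passed it, 11 newly passed it and none reversed. The 11 passed only under the analysis of variance with unadjusted p values, and not at an adjusted p. Only results called with all arrays could lose a call, so the 114 fall among those alone. Of the 23 fits that left out 1 array, Mal and Qdpr in AC over YC each lost their call in 18. Padi2 in LT over YC lost its call in 16, and Rasgrp3 lost none. Of 840 counts of called genes in the further lists, 148 moved by over 1.5 times. Values near the signal minimum of 40 are the least precise.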
